A study of Mus musculus with 4 samples.

Results

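The genes described are the 7 members of the calcitonin, amylin and calcitonin gene-related peptide (CGRP) family of receptors, receptor partners and ligands, *Calcr*, *Calcrl*, *Ramp1*, *Ramp2*, *Ramp3*, *Calca* and *Calcb*, of 32285 genes counted in single nuclei of the mouse hindbrain. They were chosen by name and with values of these data in view: their levels across cell types and neuronal clusters, their detection in the same nuclei, and the difference of *Calcrl* between the groups in astrocytes. Levels, shares of nuclei, co-detection and the astrocyte contrast are therefore descriptions, with no test. The 4 libraries came from dissected hindbrain with the area postrema (AP) and the nucleus tractus solitarius (NTS), 2 for control mice and 2 for AgRP-Gq;POMC-Gi mice. All animals were adults of 12 to 20 weeks of both sexes, had clozapine-N-oxide (CNO) at 3 mg per kg by intraperitoneal injection, and were killed 1 h later without food in the meantime.

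AgRP-Gq;POMC-Gi mice are heterozygous for AgRP-IRES-Cre, POMC-Dre, hM3DGq fl/- and hM4DGi fl/-. In them CNO activates AgRP neurons through hM3DGq, which Cre switches on, and silences POMC neurons through hM4DGi, which Dre switches on. The labels call the control mice WT, whereas the study's methods describe littermates that lack both recombinases and carry both receptor alleles. AgRP neurons lie in the hypothalamus, outside the tissue sampled, so the cells measured here are not the AgRP neurons targeted, whereas POMC neurons also occur in the NTS. Tissue was pooled within a condition from 2 mice per group, and the sources used here do not say which mice entered which library, so p-values measure only the spread between libraries, which may be in part technical.

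The calcitonin receptor *Calcr* and the calcitonin receptor-like receptor *Calcrl* are G protein-coupled receptors whose ligand preference is set by small single-pass partners, the receptor activity-modifying proteins (RAMPs). *Calcr* alone is a calcitonin receptor and with a RAMP an amylin receptor, whereas *Calcrl* with *Ramp1* is the CGRP receptor and with *Ramp2* or *Ramp3* an adrenomedullin receptor. The AP and the NTS of the dorsal hindbrain are known sites where amylin and calcitonin receptor agonists limit eating. *Calca* encodes calcitonin and, by alternative splicing, αCGRP, and *Calcb* encodes βCGRP, so counts per gene do not separate the peptides of *Calca*.

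In the GRCm38 build with GENCODE M21 annotation, all 7 genes are protein-coding and all were in the count tables. *Calcr* (ENSMUSG00000023964) lies on the minus strand of chromosome 6 from 3685680 to 3764714, and *Calcrl* (ENSMUSG00000059588) on the minus strand of chromosome 2 from 84330626 to 84425411. *Ramp1* (ENSMUSG00000034353) is on chromosome 1 from 91179822 to 91225196, and *Ramp3* (ENSMUSG00000041046) and *Ramp2* (ENSMUSG00000001240) are both on chromosome 11, from 6658521 to 6677475 and from 101246028 to 101259546. The ligand genes *Calca* (ENSMUSG00000030669, minus strand, 114631478 to 114636357) and *Calcb* (ENSMUSG00000030666, plus strand, 114718643 to 114723365) are close neighbours on chromosome 7.

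The files kept 39461 of 44303 barcodes as nuclei, 9723 to 10051 per library, with 48904976 to 53089402 unique molecular identifiers (UMIs) and medians of 3211 to 3502 UMIs per nucleus. Each of 11 marker lists was highest in the annotated cell type it stands for. Libraries differed in makeup: neurons were 25.4% and 27.2% of nuclei of control libraries and 38% and 36.5% of those from AgRP-Gq;POMC-Gi mice, a split by group, and 168 barcodes occurred in more than 1 library. *Xist*, an RNA made by cells of females, was at 507 and 319 CPM in neurons of control replicates 1 and 2 and at 541 and 16.2 CPM in those of AgRP-Gq;POMC-Gi. *Xist* was thus nearly absent from that replicate 2, so the libraries of this group differ in this mark of female cells. The part of sex in the results was not tested. CPM are the gene's UMIs per 1000000 UMIs of all genes in the nuclei concerned. CPM is not scaled by gene length, so a gene's level is compared between cell types and not with that of another gene.

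*Calcr* was detected mostly in neurons. Of its 646 UMIs in all nuclei, 95.4% were in neurons, where its level was 4.92 ± 1.298 CPM (SD, n = 4 libraries) and 1.88% of 12539 nuclei had a UMI (exact 95% interval 1.65 to 2.14%). Oligodendrocytes, which should lack the gene, had 0.202 ± 0.0985 CPM and a UMI in 0.0535% of nuclei, at a median depth of 2460 UMIs against 8704 in neurons. After thinning each nucleus to 800 UMIs the shares were 0.399% of neurons and 0.00595% of oligodendrocytes. Mural and ependymal nuclei had mean levels near that of neurons, 4.32 ± 6.39 and 4.01 ± 4.64 CPM, but on 3 and 4 *Calcr* UMIs in all, with 0 in 2 libraries each. Intervals of this kind cover counting error only. No *Calcr* UMI was found in F13a1.Immune, Ms4a4b.Immune or Oligodendrocytes/OPC nuclei, and the 88 nuclei of the first, at a median of 1712 UMIs, allow a share of nuclei with a UMI of up to 3.41%, which sets no limit on nuclei that express the gene.

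**Figure D1:**
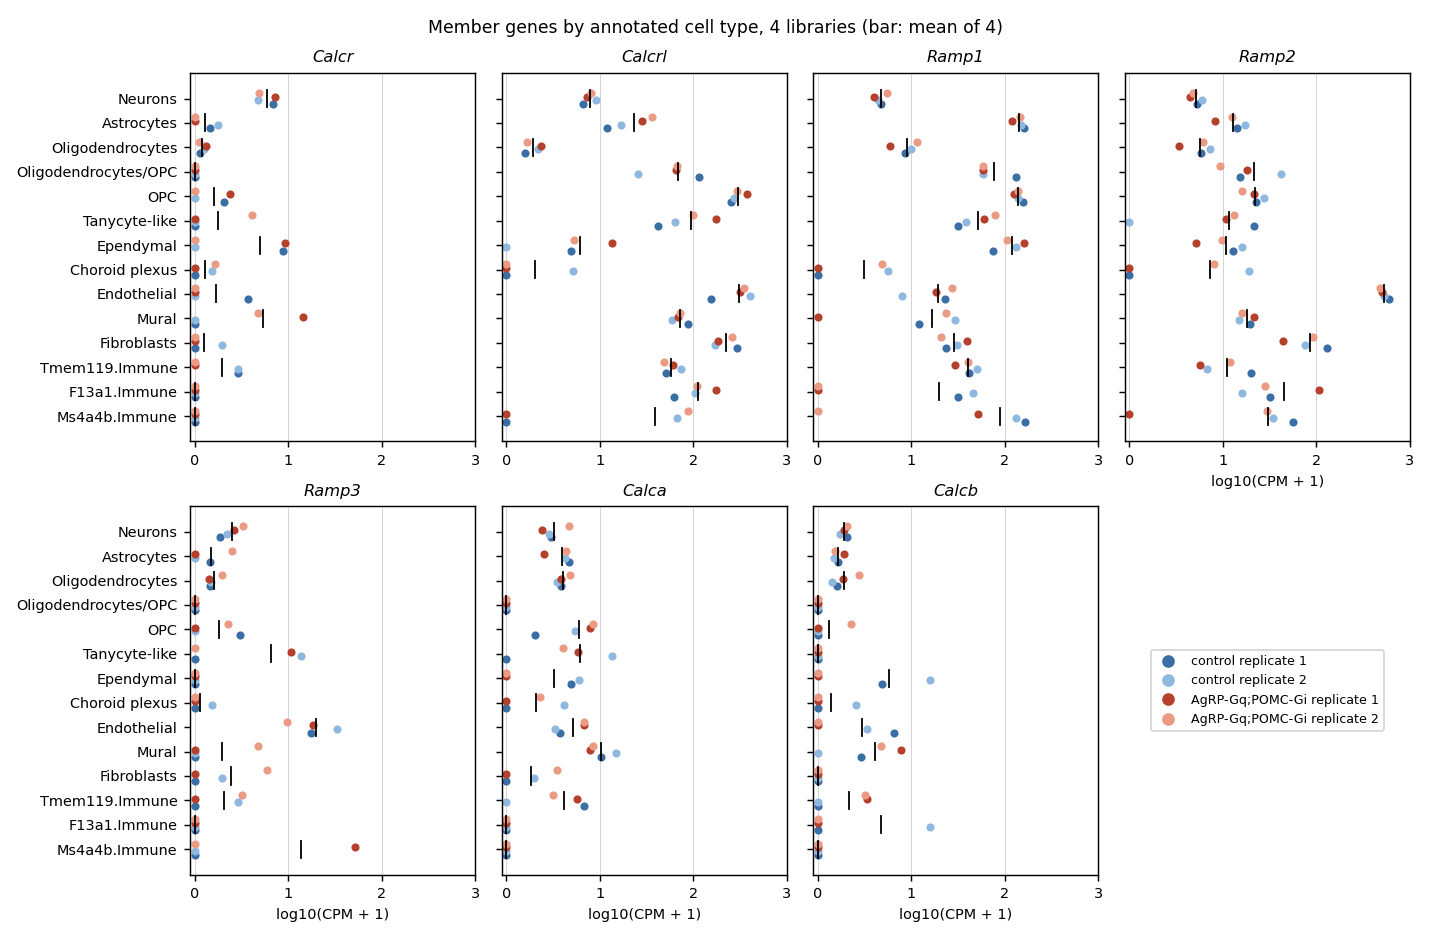
Level of each gene in the 14 annotated cell types, as log10(CPM + 1) on the horizontal axis. Each point is 1 of 4 libraries and each bar the mean of the 4 CPM values. *Calcr* is above 0 in every library in neurons and oligodendrocytes only, and its mural and ependymal points rest on 3 and 4 UMIs. *Calcrl* stands highest in endothelial cells, oligodendrocyte precursors (OPC) and fibroblasts, *Ramp1* in astrocytes, OPC and ependymal cells, and *Ramp2* in endothelial cells.

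Within neurons *Calcr* was concentrated in few of the 134 neuronal clusters to which the deposited annotation assigns the kept nuclei. The 5 highest clusters held 62.7% of neuronal *Calcr* UMIs in 3.03% of neurons, and 64 clusters had none. Among 236 neurons with a *Calcr* UMI, 115 had at least 2 and 32 at least 5, up to 19. The authors named 3 of the clusters partly after *Calcr*, so their high levels describe how they were labelled.

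Cluster 184 (Calcr/Shox2, 24 nuclei) had *Calcr* at 392 and 133 CPM in control replicates 1 and 2 and 300 and 229 CPM in AgRP-Gq;POMC-Gi replicates 1 and 2. Cluster 154 (Olfr78/Calcr, 53 nuclei) had 59.2, 234, 407 and 353 CPM in the same order. The means of both were 263 CPM, with SDs of 110 and 154. In cluster 184, 58.3% of nuclei had a *Calcr* UMI (exact 95% interval 36.6 to 77.9%), and in cluster 154 62.3% (47.9 to 75.2%). Cluster 154 held only 3 and 4 nuclei in the control libraries against 25 and 21 in those of AgRP-Gq;POMC-Gi mice, so its control values rest on 2 and 7 *Calcr* UMIs.

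The clusters named below for a gene are its highest among those with at least 20 nuclei, 10 UMIs of the gene and 3 libraries with a UMI, and clusters under these limits are left out of the order. The next levels were 71.4 ± 53.0 CPM in cluster 167 (Tph2/Slc6a4), whose label genes make and take up serotonin, and 71.3 ± 50.7 CPM in cluster 76. Cluster 62 (Reln/Calcr) had 40.3 ± 23.9 CPM and cluster 159 (Casr/Slc6a2) 36.1 ± 41.8 CPM. Cluster 159 held only 3 and 5 nuclei in the control libraries, its highest value, 93.9 CPM in control replicate 2, rests on 3 UMIs in 1 nucleus, and without that library its mean was 16.8 CPM. Cluster 109 (Gcg/Reln) had 21.3 ± 17.8 CPM, or 13.8 CPM without AgRP-Gq;POMC-Gi replicate 1. Cluster 43 (Tafa2/Pde1a) had 11.7 ± 9.84 CPM, or 7.77 CPM without control replicate 1. Clusters 185 and 118 had means of 16.7 and 14.4 CPM on 2 and 6 UMIs and fell under the limits. The ranges of the 4 library values overlapped between every pair of neighbours in this order, so the order of neighbours is not resolved. Together the 8 clusters held 70.9% of neuronal *Calcr* UMIs in 683 nuclei.

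These clusters differed in the transmitter and peptide genes beside *Calcr*. The vesicular glutamate transporter *Slc17a6* was detected in 71.7% of nuclei of cluster 154, 75.7% of cluster 62, 69.2% of cluster 76, 68.5% of cluster 109, 65.9% of cluster 43, 52% of cluster 159 and 50% of cluster 184. In cluster 167 it was detected in 6.98% of nuclei, the one cluster of the 8 below 50%. Cluster 76 held the catecholamine enzymes *Dbh* (75.2 ± 40.8 CPM) and *Th* (67.2 ± 35.1 CPM) and prolactin-releasing hormone, *Prlh*, at 18.3 ± 14.2 CPM. The leptin receptor *Lepr* was at 47.1 ± 26.1 CPM in cluster 109, which also held proglucagon *Gcg* (87.2 ± 64.6 CPM), and at 42.9 ± 9.62 CPM in cluster 62. *Glp1r*, the receptor of glucagon-like peptide, was at 74.8 ± 37.3 CPM in cluster 159, beside the calcium-sensing receptor *Casr* at 339 ± 218 CPM, and without control replicate 1, which has 3 nuclei of this cluster, the means were 59.9 and 252 CPM. *Gfral*, the receptor of a stress-induced cytokine that limits eating, averaged 32.4 ± 57.6 CPM in cluster 154 and 31.3 ± 58.9 in cluster 159, each time with an SD above its mean and in only 4 and 2 nuclei, and fell to 3.73 and 1.91 CPM without control replicate 1.

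**Figure D2:**
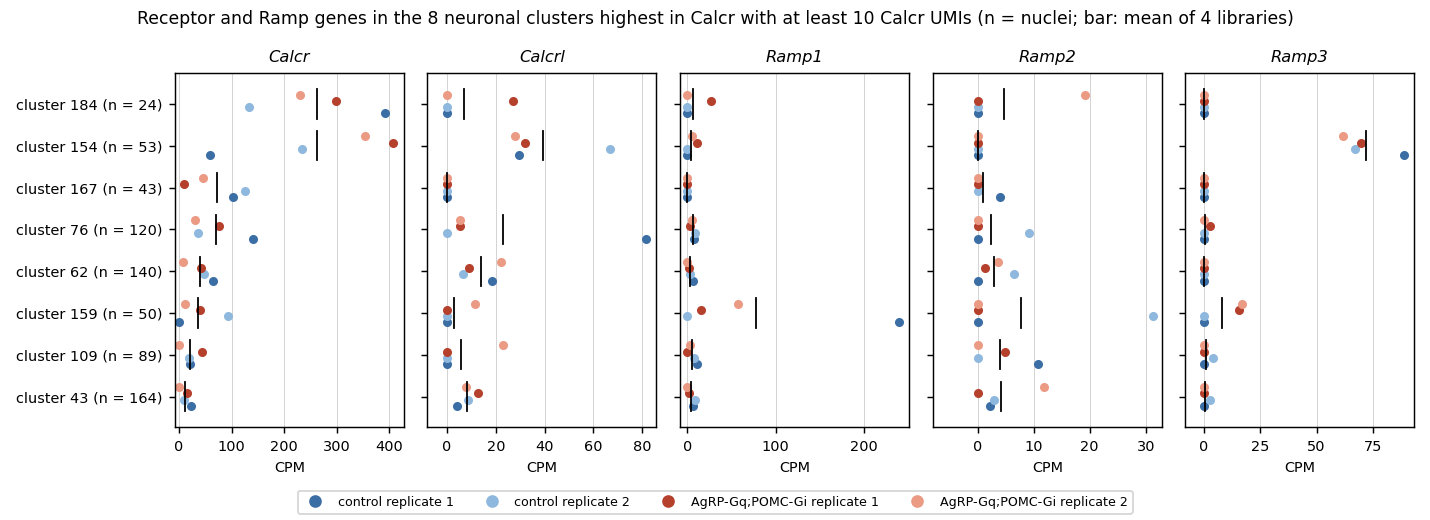
*Calcr*, *Calcrl* and the RAMP genes in the 8 neuronal clusters with the highest *Calcr* level among those with at least 20 nuclei, 10 *Calcr* UMIs and 3 libraries with a UMI, in CPM on a separate scale for each gene. Each point is a library and each bar the mean of 4. *Ramp3* stands apart in cluster 154, at 61.6 to 88.8 CPM, and is 0 in every library in clusters 184, 167 and 62.

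Across the 133 neuronal clusters with at least 20 nuclei, the 5 genes whose log2(CPM + 1) level was most like that of *Calcr* among 15470 genes were *Asb4* (Pearson r = 0.45), *Peg10* (0.43), *Ddc* (0.42), *Kmt5c* (0.41) and *Pygl* (0.41). The clusters share libraries and differ in depth, so r is a description. *Peg10* (chromosome 6, 4747306 to 4760517) and *Asb4* (5383386 to 5433022) lie on the same chromosome as *Calcr* within 3 Mb of it, a position that was looked up after the 5 genes were seen. A further gene between them, *Ppp1r9a* (4902917 to 5165661), had r = 0.38 and rank 16 of all genes, whereas *Pon2* (5264147 to 5298455), also between them, had r = 0.08 and rank 5253. The 11 other genes of the 14 measured within 3 Mb, *Pon2* among them, had r of -0.16 to 0.23. *Peg10* ranked first of 133 clusters in cluster 184 at 70.02 ± 68.2 CPM. *Asb4* ranked first in cluster 109 at 66.6 ± 47.6 CPM and was 0 in cluster 154. Without the 8 clusters r fell to 0.29 for *Asb4* and 0.26 for *Peg10* over 125 clusters.

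*Calcrl* was mainly a gene of vascular, connective and glial precursor nuclei. It was highest in endothelial cells, at 155, 407, 314 and 344 CPM in control replicates 1 and 2 and AgRP-Gq;POMC-Gi replicates 1 and 2 (mean 305 ± 107), and 27.0% of 789 nuclei had a UMI. OPC had 254, 268, 376 and 293 CPM in the same order (298 ± 54.6), with a UMI in 54.5% of 784 nuclei. Fibroblasts had 225 ± 59.1 CPM, and the ranges of these 3 cell types overlapped. The next levels were 112 ± 46.8 CPM in F13a1.Immune macrophages, 94.1 ± 58.8 CPM in tanycyte-like cells, 70.7 ± 11.5 CPM in mural cells, 67.4 ± 37.1 CPM in Oligodendrocytes/OPC nuclei and 57.4 ± 11.1 CPM in Tmem119.Immune nuclei. Oligodendrocytes had 0.946 ± 0.384 CPM with a UMI in 0.250% of nuclei, and choroid plexus nuclei had 1.03 ± 2.06 CPM, with 0 in 3 of 4 libraries. These were the lowest means of the 14 cell types, and they overlapped. Control replicate 1 and AgRP-Gq;POMC-Gi replicate 1 held only 2 and 6 choroid plexus nuclei, so their values of 0 carry little information. The replicates numbered 2 held 436 and 329. The larger OPC share in comparison with endothelial cells stood beside a greater depth, 3728 against 1460 median UMIs, and thinned to 800 UMIs the shares were 19.3% and 17.0%.

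Endothelial clusters differed in mean *Calcrl*, with SDs close to the mean in clusters 106 and 164. Its level was 123 ± 46.0 CPM in cluster 32, and clusters 106 and 164 had 541 ± 437 and 782 ± 664 CPM. In cluster 164, 73.9% of 46 nuclei had a UMI. The means of *Ramp2* varied less and in another order, the highest being 837 ± 410 CPM in cluster 32, while clusters 106 and 164 had 406 ± 80.4 and 496 ± 178 CPM. Fibroblast clusters ran from 66.9 ± 69.0 CPM of *Calcrl* in cluster 93 to 388 ± 126 CPM in cluster 44.

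In neurons *Calcrl* was at 5.62, 8.02, 6.35 and 7.03 CPM (mean 6.76 ± 1.02) and 3.64% of nuclei had a UMI, above the oligodendrocyte level in every library. It was spread over more clusters than *Calcr*: 11 clusters were needed to reach 50% of its UMIs, against 4 for *Calcr*, and 39 of 134 had none. Cluster 181 (Sntb1/Cpne4, 30 nuclei) was highest at 32.4, 198, 259 and 232 CPM, with a UMI in 80.0% of nuclei. Clusters 146 (Rxfp1/Ebf2) and 129 (Bnc2/Ebf2) followed at 137 ± 55.2 and 132 ± 38.2 CPM, and these 3 clusters overlapped. The next, cluster 172 (Bnc2/Ebf3) at 64.9 ± 13.2 CPM, had a range below that of cluster 129 but overlapped with those of clusters 146 and 181. Clusters 105 (Ebf2/Calb1), 155 (Kcnh8/Arhgap6), 70 (Tfap2b/Cntnap5b) and 65 (Eya1/Hs3st4) had 44.6 to 56.2 CPM and overlapped, and the means fell to 31.8 CPM in cluster 105 if AgRP-Gq;POMC-Gi replicate 1 was dropped and to 28.1 CPM in cluster 65 if control replicate 2 was. Cluster 177 averaged 151 CPM on a single *Calcrl* UMI and was left out of this order. The genes most like *Calcrl* across clusters were the transcription factors *Tlx3* (r = 0.47), *Lmx1b* (0.40) and *Zbtb20* (0.40), then *Dpy19l2* (0.40) and the unnamed transcript *C130021I20Rik* (0.39). *Calcr* and *Calcrl* had r = 0.06 with each other.

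*Ramp1*, the partner in the CGRP receptor, was highest in astrocytes (158, 147, 118 and 145 CPM, mean 142 ± 17.3, in 36.9% of 4378 nuclei) and in OPC (156, 137, 125 and 137 CPM, mean 139 ± 12.7, in 39.3% of nuclei). Ependymal cells had 117 ± 36.8 CPM, and these 3 cell types overlapped. Neurons, at 3.68 ± 0.657 CPM, were below oligodendrocytes, at 7.90 ± 2.32 CPM, whereas the share of nuclei with a UMI was higher in the deeper neurons, 3.38% (exact 95% interval 3.07 to 3.71%) against 2.01% (1.80 to 2.23%). With every nucleus thinned to 800 UMIs the shares were 0.351% of neurons and 0.791% of oligodendrocytes, in the order of the CPM. No order is drawn from shares at unequal depth, and whether the low signal in either cell type is free RNA was not tested. Of the neurons with a *Ramp1* UMI, 92.2% had a single one. Cluster 42 (Mylk/Mctp2) stood above the oligodendrocyte level in each library, at 32.0, 18.9, 17.2 and 20.1 CPM, with a UMI in 21.1% of nuclei. Cluster 159 averaged 78.1 CPM, but its values were 239, 0, 15.6 and 57.4 CPM, the first rests on 2 UMIs, and without that library the mean was 24.3 CPM.

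*Ramp2*, a partner in adrenomedullin receptors, was highest in endothelial cells, at 600, 533, 501 and 475 CPM (mean 527 ± 53.8), with a UMI in 49.9% of nuclei. Fibroblasts followed at 84.1 ± 35.3 CPM without overlap. Neurons (4.13 ± 0.702 CPM) and oligodendrocytes (4.64 ± 1.60 CPM) had overlapping CPM, with a UMI in 3.74% and 1.21% of nuclei, or 0.343% and 0.387% when thinned to 800 UMIs. No neuronal cluster exceeded 5 times the neuronal mean, and the highest within the limits, cluster 80 (Pdyn/Cpa6), had 14.9 ± 8.99 CPM.

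*Ramp3*, the other partner in adrenomedullin and amylin receptors, was highest in endothelial cells at 18.8 ± 9.97 CPM, on 26 UMIs. Neurons had 0.856, 1.20, 1.63 and 2.27 CPM against 0.464, 0.503, 0.421 and 0.970 CPM in oligodendrocytes, so each library was higher in neurons. Cluster 154 was the highest neuronal cluster, at 88.8, 66.8, 69.7 and 61.6 CPM (71.7 ± 11.9), with a UMI in 37.7% of its nuclei (exact 95% interval 24.8 to 52.1%). Of the other clusters within the limits, 146 had 32.7 ± 26.0 CPM and 70 had 15.1 ± 5.20 CPM. Clusters 182 (42.9 ± 37.0 CPM) and 178 (20.4 ± 15.1 CPM) had means above those of 146 and 70 respectively, but on 5 and 6 UMIs. For 81 of 134 neuronal clusters there was no *Ramp3* UMI.

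The ligand genes were scarce. *Calca* had 2.24 ± 1.02 CPM in neurons and 3.00 ± 0.541 CPM in oligodendrocytes, and *Calcb* 0.923 ± 0.144 and 0.896 ± 0.579 CPM, both with overlapping ranges. Within each library *Calca* was higher in oligodendrocytes, at 2.85, 2.51, 2.84 and 3.77 CPM against 2.01, 1.82, 1.41 and 3.71 CPM in neurons, whereas the order for *Calcb* differed between libraries. The shares of nuclei with a UMI were higher in the deeper neurons, 1.87% against 0.743% for *Calca* and 0.702% against 0.220% for *Calcb*. Thinned to 800 UMIs they were 0.207% (0.136 to 0.304%) against 0.279% (0.205 to 0.371%) and 0.120% (0.0670 to 0.197%) against 0.0416% (0.0167 to 0.0857%), and both pairs of intervals overlap. The highest mean of *Calca* was 9.40 ± 3.26 CPM in mural cells, on 14 UMIs, and that of *Calcb* 4.71 ± 7.06 CPM in ependymal cells, on 4 UMIs. Cluster 111 (Cartpt/Postn) was the exception for *Calca*, at 30.9, 43.4, 25.2 and 41.8 CPM with a UMI in 19.5% of 87 nuclei, and it did not overlap with the next cluster within the limits. That next cluster, 116 (Prph/Slc5a7), is named for a neuronal filament and the choline transporter and had *Calca* at 15 ± 6.52 CPM. Cluster 116 was also the only one to pass the limits for naming *Calcb*, at 31.3, 32.9, 21.6 and 22.4 CPM, and held 26.7% of neuronal *Calcb* UMIs. In it 7 of the 11 nuclei with a *Calca* UMI also had a *Calcb* UMI, against 6 of the 71 without. *Calca* was the fifth most similar gene to *Calcb* across clusters, at r = 0.30.

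Detection of a RAMP in nuclei with *Calcr* differed by RAMP. Of 236 neurons with a *Calcr* UMI, 21 had a *Ramp3* UMI, 8.90% (exact 95% interval 5.59 to 13.3%), against 1.25% (1.06 to 1.46%) of 12303 neurons without. *Ramp1* was found in 3.39% (1.47 to 6.57%) with and 3.38% without, and *Ramp2* in 2.97% (1.20 to 6.02%) with and 3.76% without. If control replicate 2 was dropped the *Ramp2* shares were 1.63% and 3.58%. Median depths over all libraries were 9016 and 8698 UMIs. Neurons under 4000 UMIs were then left out and the others thinned to 4000. The *Ramp3* shares became 8.72% of 149 neurons with and 0.614% of 11239 without *Calcr*. Cluster 154 supplied 14 of the 21 neurons with both: there 42.4% of 33 nuclei with *Calcr* and 30.0% of 20 without had *Ramp3*, intervals that overlap. Outside cluster 154 the *Ramp3* share with *Calcr* was 3.45% (1.40 to 6.98%) against 1.20% (1.02 to 1.41%), and the intervals overlap narrowly. The difference was thus smaller there but kept its direction. Outside all the clusters listed above as highest in *Calcr*, cluster 154 among them, 5 of 107 neurons with *Calcr* had *Ramp3*. That is 4.67% (1.53 to 10.6%) against 1.21% (1.02 to 1.42%) without, and these intervals do not overlap. The 5 neurons were 2, 1, 1 and 1 by library, and the intervals pool nuclei, so they do not measure the spread between libraries. Median depths there were unequal, 11117 and 8688 UMIs, and no thinned shares were computed for these neurons. In clusters 184 and 62, 0 of 14 and 0 of 29 nuclei with *Calcr* had *Ramp3*, which allows shares of nuclei with a *Ramp3* UMI of up to 21.4% and 10.3%. *Calcr* and *Calcrl* met in 9 neurons, 3.81% of those with *Calcr* against 3.63% of those without.

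**Figure D3:**
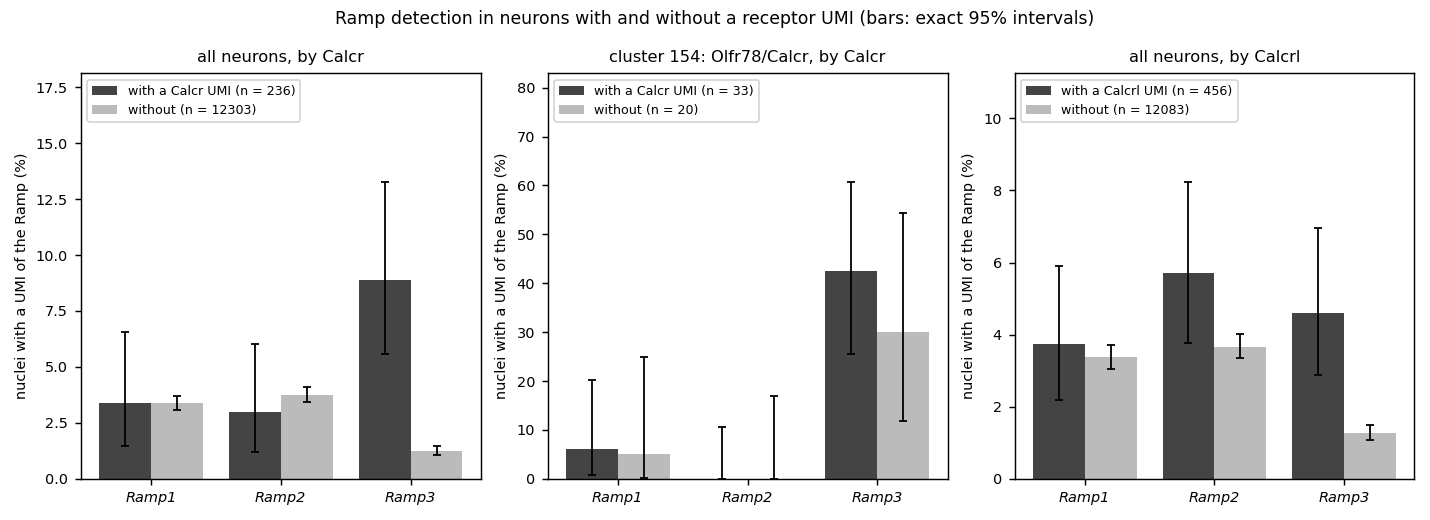
Share of neurons with a UMI of each RAMP, in percent, for neurons with (dark) and without (light) a UMI of the receptor named above the panel, with exact 95% intervals pooled over 4 libraries. *Ramp3* is at 8.90% with and 1.25% without *Calcr*, while *Ramp1* and *Ramp2* shares overlap.

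For *Calcrl* in neurons, *Ramp3* was found in 4.61% (2.87 to 6.95%) of 456 nuclei with a UMI and 1.27% (1.08 to 1.49%) of those without. The *Ramp2* shares were 5.70% (3.76 to 8.24%) and 3.67%, and the *Ramp1* shares 3.73% and 3.37%, both with overlapping intervals. Thinned to 4000 UMIs, with shallower neurons left out, the *Ramp3* shares were 2.03% (0.663 to 4.68%) and 0.691% (0.546 to 0.863%), which overlap. Outside neurons the share of nuclei with a partner UMI varied by cell type. In OPC, 41.7% of 427 nuclei with and 36.4% of 357 without a *Calcrl* UMI had *Ramp1*, and in endothelial cells 51.6% of 213 with and 49.3% of 576 without had *Ramp2*. Astrocytes had *Ramp1* in 32.8% of 229 nuclei with and 37.1% of 4149 without *Calcrl*. Fibroblasts had *Ramp2* in 17.4% of 241 with and 14.2% of 578 without, and tanycyte-like cells *Ramp1* in 15.7% of 51 and 19.2% of 151. Partners were scarcer in mural cells, where *Ramp1* was found in 5.06% and *Ramp2* in 6.33% of 79 nuclei with *Calcrl* against 2.20% each of 727 without, and in Tmem119.Immune nuclei, at 8.54% and 2.44% of 82 with against 7.10% and 1.58% of 887 without. The intervals with and without *Calcrl* overlapped in each of these pairs. All 5 mural and both Tmem119.Immune nuclei with *Calcrl* and *Ramp2* together were in control replicate 1, so those shares rest on 1 library.

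The comparison of groups asked whether a gene's level changed 1 h after opposite control of AgRP and POMC neurons. *Calcrl* in astrocytes is the value that led to this list and is described without a test. It was 10.8 and 15.8 CPM in the control libraries and 27.2 and 35.0 CPM in those of AgRP-Gq;POMC-Gi mice, on 50, 63, 91 and 138 UMIs. The groups did not overlap, and the fitted log2 difference was 1.29. In the same libraries 36 of 1103, 45 of 1084, 54 of 1042 and 94 of 1149 astrocytes had a UMI. Endothelial markers in astrocytes summed to 11.9, 19.6, 16.7 and 13.4 CPM and mural markers to 38.1, 45.9, 51.1 and 56.3 CPM, and without nuclei that had a UMI of either list the log2 difference was 1.28. The 3 OPC markers, of a cell type high in *Calcrl*, summed to 30.1, 31.6, 38.2 and 42.6 CPM in astrocytes and the ependymal markers to 3.90, 7.27, 7.47 and 7.61 CPM. The mural, OPC and ependymal lists were thus higher in both AgRP-Gq;POMC-Gi libraries than in both control libraries, whereas oligodendrocyte markers, at 538, 594, 343 and 430 CPM, were lower. Choroid plexus markers in astrocytes were 4.11 and 2707 CPM in control replicates 1 and 2 and 18.8 and 1652 CPM in their AgRP-Gq;POMC-Gi counterparts, so they followed the replicate number and not the group. The numbers of choroid plexus nuclei, 2 and 436 in control and 6 and 329 in the other group, did the same. Beyond the nuclei left out above, the part of these marker lists in the *Calcrl* difference was not tested.

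*Calcrl* was uneven among the 11 astrocyte clusters, and so was the makeup of the libraries. It reached 228 ± 74.5 CPM in cluster 54 and 142 ± 54.7 in cluster 48, averaged 52.1, 18.3 and 16.9 CPM in clusters 20, 15 and 18, and was 0 in all 4 libraries in 3 clusters. The 5 clusters above 10 CPM held 98.0% of astrocyte *Calcrl* UMIs and were 34.1% and 40.9% of astrocytes in control and 49.0% and 55.8% in AgRP-Gq;POMC-Gi animals. Within cluster 54 the values were 198 and 140 CPM in control and 308 and 267 CPM in the other group, and within cluster 48 they were 99.4 and 98.2 CPM and 158 and 213 CPM. In 3 of 11 clusters (54, 48 and 15) both AgRP-Gq;POMC-Gi libraries were above both control libraries. With the same cluster shares applied to every library the levels were 16.5 and 20.8 CPM in control and 29.7 and 28.9 CPM in the other group, a log2 ratio of 0.65, so the groups still did not overlap but stood closer. *Ramp1* in astrocytes was at 158 and 147 CPM in control and 118 and 145 CPM in the other group, and *Ramp2* at 12.99 and 16.3 CPM and 7.17 and 11.4 CPM.

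**Figure D4:**
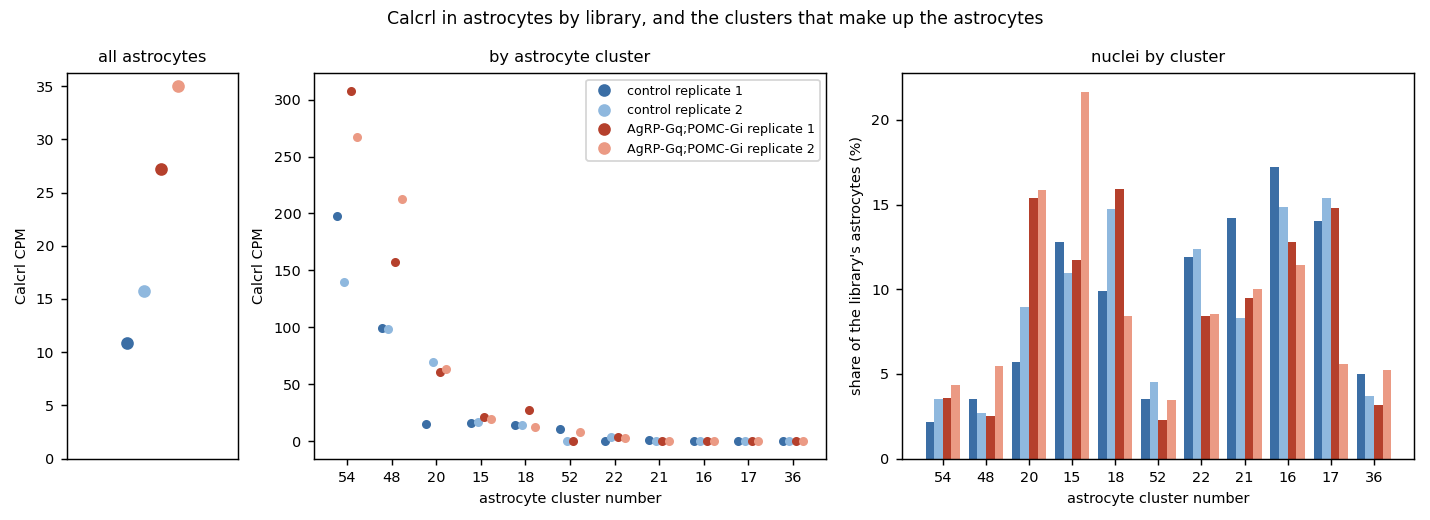
*Calcrl* level in CPM in all astrocytes (left) and in each of 11 astrocyte clusters (middle), and the percent of each library's astrocytes in each cluster (right), with 1 point or bar per library. Clusters 54 and 48 carry the highest levels, and cluster 20 is 5.71% and 8.95% of astrocytes in control and 15.4% and 15.8% in AgRP-Gq;POMC-Gi mice.

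Outside astrocytes no member passed edgeR's quasi-likelihood test between groups at an adjusted p of 0.05 (Benjamini-Hochberg over all genes of a cell type). Members had enough UMIs in 9 cell types, giving 23 tests, of which 0 were called and 3 had an unadjusted p under 0.05. Those 3 were in neurons, OPC and tanycyte-like cells, where 1073 of 18972, 534 of 8438 and 177 of 2910 genes had one. The share of all genes called was 0.00527% in neurons, 0.0474% in OPC, 0.194% in oligodendrocytes, 0.652% in mural cells and 0% in endothelial, ependymal, fibroblast, tanycyte-like and Tmem119.Immune nuclei. DESeq2 also called 0 members in these cell types. With so few genes called in these fits the members' count of 0 does not set them apart. A fit with a library left out has only 1 library in 1 of the groups, so its calls do not measure the spread within that group. The number of genes called depended on single libraries: without replicate 2 of AgRP-Gq;POMC-Gi, the library low in *Xist*, it rose from 1 to 2499 of 18972 genes in neurons, from 28 to 1479 of 14468 in oligodendrocytes and from 4 to 71 of 8438 in OPC. Without replicate 1 of that group it was 153 in neurons, 278 in oligodendrocytes, 33 in OPC and, of 5365 genes in mural cells, 100 against 35. Of the members, *Calcrl* in OPC alone was called in such a fit.

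The lowest unadjusted p was that of *Ramp3* in neurons. Its levels given above, 0.856 and 1.20 CPM in control and 1.63 and 2.27 CPM in AgRP-Gq;POMC-Gi mice, did not overlap between groups, with a log2 fold change of 0.97 (SE 0.29, edgeR adjusted p = 0.833, unadjusted 0.0102). Cluster 154 held 3, 2, 13 and 11 of the 23, 33, 58 and 80 neuronal *Ramp3* UMIs of the 4 libraries, and without it the log2 fold change was 0.84 (SE 0.33, edgeR adjusted p = 0.843). Other clusters named for *Ramp3* also differed in nuclei. Of 2470, 2736, 3696 and 3637 neurons, cluster 70 held 11, 23, 54 and 43 and cluster 146 held 9, 8, 15 and 26. Cluster 55 held 22, 19, 42 and 66 and cluster 50 held 30, 35, 33 and 58. The part of cluster makeup beyond cluster 154 was not tested. In neurons oligodendrocyte markers summed to 251 and 212 CPM in control and 126 and 158 CPM in the other group. Mural markers were at 9.23 and 9.48 against 6.80 and 8.31 CPM. Lymphoid markers were at 34.33 and 36.05 against 43.25 and 40.96 CPM, and microglia and macrophage markers at 139.9 and 138.9 against 153.5 and 140 CPM. These lists did not overlap between groups, and their part in the *Ramp3* change was not tested. *Calcr* in neurons was at 5.92 and 3.79 CPM in control and 6.15 and 3.799 CPM in the other group, which overlap (log2 fold change 0.11, SE 0.30, edgeR adjusted p = 0.961). Outside cluster 154 the values were 5.85 and 3.54 CPM against 4.04 and 2.02 CPM, and the log2 fold change was -0.56 (SE 0.37, edgeR adjusted p = 0.849), so its sign depended on 53 nuclei. With cluster 154 kept, the sign for *Calcr* also turned when control replicate 2 or AgRP-Gq;POMC-Gi replicate 1 was left out.

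*Calcrl* in OPC did not overlap between groups in the levels above, at a log2 fold change of 0.41 (SE 0.17, edgeR adjusted p = 0.669). With replicate 2 of the AgRP-Gq;POMC-Gi group left out, the log2 fold change was 0.63. That fit has 1 library of this group. The call of *Calcrl* named above thus depended on 1 library and does not measure the spread within the group. In OPC nuclei oligodendrocyte markers summed to 433 and 541 CPM in control and 384 and 337 CPM in the other group, without overlap. Their part in the *Calcrl* difference was not tested. Tanycyte-like cells had *Calcrl* at 41.0 and 62.5 CPM in control and 175 and 98.1 CPM in AgRP-Gq;POMC-Gi mice, from as few as 26 nuclei a library (log2 fold change 1.45, SE 0.59, edgeR adjusted p = 0.782). In the same nuclei astrocyte markers summed to 1629 and 1337 CPM in control and 2346 and 2303 CPM in the other group. Neuron markers were lower there, at 953 and 1911 CPM against 612 and 616 CPM. So were fibroblast markers, at 102 and 75.0 CPM against 63.1 and 42.9 CPM, and ependymal markers, at 82.0 and 99.9 CPM against 24.3 and 58.3 CPM. These lists did not overlap between groups, and their part in the *Calcrl* difference was not tested. In its highest cell type, endothelial cells, *Calcrl* overlapped (0.21, SE 0.35, edgeR adjusted p = 0.991), as it did in neurons (0.03, SE 0.19, edgeR adjusted p = 0.982).

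*Ramp2* had negative fitted log2 fold changes, -0.22 to -0.59, in the 6 cell types with enough UMIs, astrocytes included, and none of the 5 tested passed. The libraries of the groups overlapped in fibroblasts (control 128 and 75.4 CPM, AgRP-Gq;POMC-Gi 42.9 and 90.3 CPM) and in oligodendrocytes (4.77 and 6.199 CPM, 2.42 and 5.17 CPM). Its values in endothelial cells were -0.22 (SE 0.20, edgeR adjusted p = 0.949) and in neurons -0.31 (SE 0.18, edgeR adjusted p = 0.833). The 6 values come from the same 4 libraries and are not independent. *Ramp1* differed by 0.12 (SE 0.22) in neurons and -0.13 (SE 0.17) in OPC, and the ligands *Calca* and *Calcb* by 0.46 (SE 0.40) and 0.18 (SE 0.31) in neurons, all with edgeR adjusted p of 0.853 or more. Without AgRP-Gq;POMC-Gi replicate 2 the values of *Ramp1* and *Calca* in neurons turned to -0.15 and -0.33, and without control replicate 2 that of *Calcb* turned to -0.059, so these 3 have no settled direction.

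**Figure D5:**
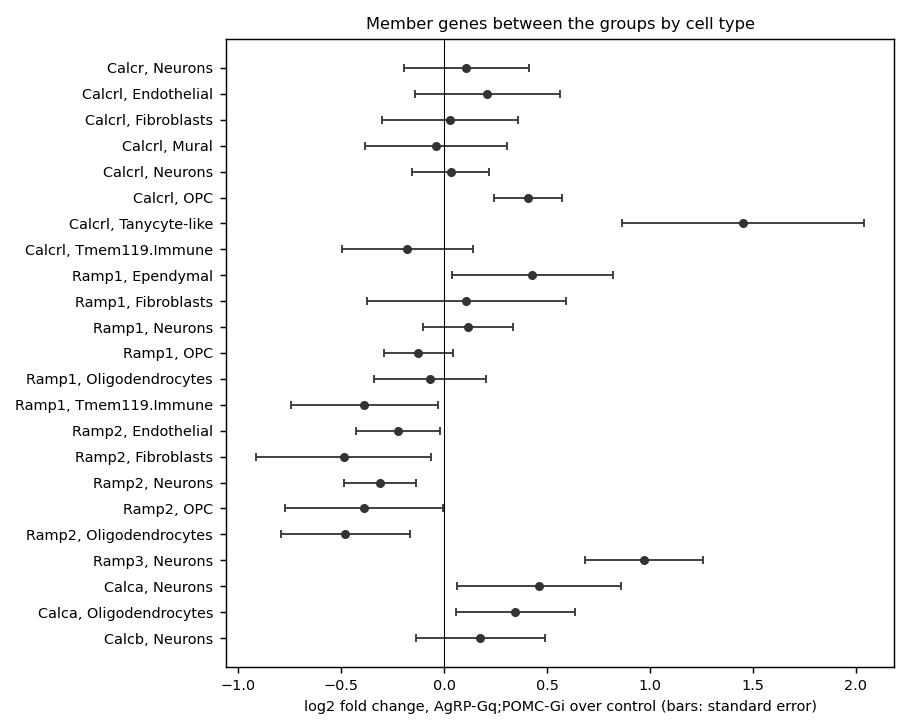
Log2 fold change of each tested gene and cell type outside astrocytes, AgRP-Gq;POMC-Gi over control, with a standard error derived from edgeR's F statistic. *Calcrl* in tanycyte-like cells (1.45) and *Ramp3* in neurons (0.97) lie highest, all 5 *Ramp2* values lie below 0, and none of the 23 passed an adjusted p of 0.05.

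Within neuronal clusters, 23 pairs of member and cluster could be tested in 22 clusters, and 0 passed. The adjustment ran over all 822754 gene and cluster pairs, of which 0.0162% had an adjusted p below 0.05. An unadjusted p under 0.05 was found for 2 of the 23, and for 40142 of the 822754 pairs of all genes. *Calcr* in the serotonergic cluster 167 was at 104 and 126 CPM in control and 10.2 and 45.7 CPM in AgRP-Gq;POMC-Gi mice, without overlap on 26, 7, 1 and 1 UMIs (log2 fold change -2.59, SE 0.90, edgeR adjusted p = 0.955). *Calcrl* in cluster 105 was at 0 and 46.4 CPM against 129 and 49.1 CPM (1.67, SE 0.67, edgeR adjusted p = 0.978). Of the 13 clusters tested for *Calcrl*, 8 had a negative log2 fold change. The libraries did not overlap between groups in clusters 33 (-1.31), 53 (-0.98), 90 (-0.98) and 146 (-0.84), which were lower in AgRP-Gq;POMC-Gi mice, and in clusters 105 and 181 (0.90), which were higher. *Calcr* in cluster 62 was at 63.9 and 48.4 CPM in control and 41.6 and 7.39 CPM in AgRP-Gq;POMC-Gi mice, again without overlap (-0.79, SE 0.45, edgeR adjusted p = 1). In the other 5 of the 7 clusters where *Calcr* was tested the libraries of the groups overlapped. Cluster 154, with too few control nuclei for a test, ran the other way in the values above, with group means of 146 CPM for control and 380 CPM for AgRP-Gq;POMC-Gi. Among the 23 tested pairs, 9 had groups that did not overlap. For 2 libraries against 2, groups without overlap have p = 0.333 in an exact permutation test. The share without overlap over all gene and cluster pairs was not computed, so this count does not set the members apart.

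Of 11 further genes of the pathway, 8 had enough UMIs for a test in at least 1 cell type outside astrocytes. Of their 37 tests 0 passed in either direction and 0 had an unadjusted p under 0.05 (edgeR adjusted p of 0.486 or more), and 12 log2 fold changes were positive and 25 negative, from -0.83 to 0.45 with a median of -0.06. The median over all genes tested was -0.019 to 0.035 by cell type, and in the 3 cell types tested for these genes alone (F13a1.Immune, Ms4a4b.Immune and Oligodendrocytes/OPC) 0% of genes were called by edgeR and 0 by DESeq2. Amylin itself, *Iapp*, had 16 UMIs in all nuclei and adrenomedullin 2, *Adm2*, had 0. *Adm*, the ligand of *Calcrl* with *Ramp2* or *Ramp3*, was highest in fibroblasts at 49.5 ± 17.0 CPM. *Ackr3*, a scavenging receptor for adrenomedullin, was highest in mural cells at 174 ± 26.9 CPM and at 82.1 ± 36.6 CPM in endothelial cells. *Gnas*, which encodes the G protein subunit these receptors signal through, was detected in 96.0% of neurons.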

How the data were processed

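Per the labels and the study's methods, nuclei were sorted on DraQ5, libraries were made with the 10x Genomics 3′ kit, and the authors counted UMIs per gene and nucleus with Cell Ranger 7.0.0 on GRCm38 (mm10) and processed them with Seurat 4.3.0. The deposited matrices hold raw UMI counts. The authors' table gives total counts, the percent of mitochondrial counts, a pass mark, the cell type and the cluster of each barcode. The pass mark, which leaves out marked doublets, was used as deposited. A pooled matrix of all libraries was not used.

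Counts of nuclei that passed were summed per library and cell type or neuronal cluster. CPM and exact Clopper-Pearson intervals came from Python 3 with scipy, and a count of 0 was given a limit of 3 counts. Groups were compared with edgeR 4.0.16 (TMM, quasi-likelihood test, R 4.3.3) over all genes with at least 50 UMIs in a cell type with at least 10 nuclei in each library, or 20 UMIs and 5 nuclei in a neuronal cluster, with Benjamini-Hochberg adjustment. The test was checked on simulated counts with 1 fixed spread and with changes in well-counted genes only. That check does not cover sparse genes or the spread between these libraries. The SE given with a log2 fold change is its absolute value over the square root of the F statistic of the edgeR test. With 2 libraries against 2, an exact permutation test cannot go below p = 0.333. Clusters were named for a gene when among its 8 highest with at least 20 nuclei, 10 UMIs and 3 libraries with a UMI. DESeq2 1.42.0, other scalings and filters, a replicate block, thinning and left-out libraries were the alternatives. Each fit with a library left out compares 2 libraries with 1, so its calls do not measure the spread within the group of 1. The study used a mixed model over nuclei, which sums per library replace here. The members and lists were chosen with earlier results of these data known. One of the context genes is not reported here, and clusters are numbered without their labels in the plot of *Calcr* clusters.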

Additional observations from a re-analysis of the deposited data

How the results depend on the processing

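The count of members called outside astrocytes was 0 under each alternative except one: leaving out replicate 2 of the AgRP-Gq;POMC-Gi group gave 1 (*Calcrl* in OPC), so left-out libraries ranged from 0 to 1. That setting also raised the calls over all genes, from 1 to 2499 in neurons, 28 to 1479 in oligodendrocytes and 4 to 71 in OPC. In neuronal clusters 0 members were called under every alternative run, while the pairs of any gene called went from 133 to 389 with a filter of 5% of nuclei, 947 with no filter and 473 with the replicate block, and to 628 to 1128 over left-out libraries. With the replicate block 0 members were called by cell type and by cluster, while the genes called went to 81 in neurons, 166 in oligodendrocytes, 67 in mural cells (35 without the block) and 45 in endothelial cells (0 without it), and *Calcrl* in astrocytes was 1.27. Deviations of same-numbered libraries correlated over genes at 0.09 in neurons, 0.24 in oligodendrocytes and OPC and 0.22 in astrocytes, and the numbers are not stated to pair animals. The *Calcrl* difference in astrocytes was 1.04 to 1.56 over left-out libraries and moved to 0.65 with the same cluster shares in every library, chosen after seeing the data, as was leaving out cluster 154.

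Some log2 fold changes near 0 turned sign. In neurons *Calcr* was -0.56 outside cluster 154 and -0.34 to 0.46 over left-out libraries, being -0.18 without control replicate 2 and -0.34 if AgRP-Gq;POMC-Gi replicate 1 was dropped. *Calcrl* in neurons was -0.028 without TMM and -0.20 to 0.31 over left-out libraries. The ranges over left-out libraries were -0.15 to 0.34 for *Ramp1*, -0.33 to 0.96 for *Calca* and -0.059 to 0.45 for *Calcb* in neurons, and -0.30 to 1.08 for *Calcrl* in endothelial cells. *Calcrl* in fibroblasts was -0.0047 with DESeq2 and -0.37 to 0.41 over left-out libraries, with -0.20 if AgRP-Gq;POMC-Gi replicate 2 was dropped. The cause of these changes was not tested. Levels under 1 CPM rest on few UMIs, and shares of nuclei fell with thinning, so they are tied to depth.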
